A study of Mus musculus with 2 samples.

Results

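The actin isoforms and alpha-actinins were examined in 2 mouse heart sections by spatial transcriptomics. Of 9 genes listed by symbol, 6 had counts among the 19465 genes of the sections. These were the actins Acta1, Acta2, Actg2 and Actb and the alpha-actinins Actn1 and Actn2. The other 3, Actc1, Actg1 and Actn4, were not analysed here.

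Actins polymerise into the thin filaments of the sarcomere and into the cytoskeleton of every cell. Alpha-actinins are rod-shaped crosslinkers that hold thin filaments together, with Actn2 at the Z-disc of striated muscle and Actn1 at stress fibres and adhesion sites of other cells. The adult mouse heart relies mainly on the cardiac alpha-actin of Actc1, whereas the skeletal alpha-actin Acta1 is abundant before birth and is a widely used marker of the fetal gene program in the stressed heart. Acta2 encodes smooth muscle alpha-actin, which marks vessel walls and activated fibroblasts, Actg2 encodes the smooth muscle gamma-actin of visceral organs, and Actb encodes cytoplasmic beta-actin.

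The control section came from an α-MHC-MerCreMer+/− heart and the transgenic section from an α-MHC-MerCreMer+/−TOP2B LSL/− heart, 1 mouse of each genotype. Both genotypes carried the tamoxifen-inducible Cre, which the α-MHC promoter directs to cardiomyocytes, and both received a single dose of 80 mg/kg tamoxifen. Per the study's methods, the mice given this dose were 6 weeks old, and the transgenic mice held a human TOP2B cDNA behind a loxP-flanked stop cassette under the ubiquitous CAG promoter, so that the Cre, and not the Top2b gene of the mouse, sets where the cDNA is made. The labels give neither the sex, nor the time of harvest, nor the plane of the cut, and the outlines of the sections differed.

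The hearts were fixed in formalin, embedded in paraffin and cut at 5 μm, and probes for each gene were captured on barcoded spots and counted by unique molecular identifiers (UMIs). The control section held 1256 spots and 14376300 UMIs, and the transgenic section held 924 spots and 12953389 UMIs, of which 1 spot had none. Levels are given as UMIs per 1000000 UMIs of the section (CPM), with 95% intervals that cover counting error alone. With 1 section per genotype there is no spread between animals, no test of the genotype was possible, and every difference is one between these sections. The range over 4 quadrants, made at the median spot position, describes how far a level varied within a section. A spot can hold several cell types, so fewer cells of a type and less RNA per cell cannot be told apart. The mouse Top2b gene had 106 CPM in the control section against 102 CPM in the transgenic one, and whether its probes also read the human cDNA is not given in the sources used here.

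The sequences upstream of Acta1 and Acta2 are shown because the results below turn on these actins, whose promoters are well known to be governed by serum response factor through CArG boxes. Each line holds the 250 bases before the start that RefSeq gives in GRCm38.p6, an older build than that named for the deposited counts, from chr8:123894776-123895025 (minus strand) for Acta1 and chr19:34255374-34255623 (minus strand) for Acta2. Capitals mark the CArG box, searched by its strict consensus, and the MCAT element bound by TEAD factors, searched as CATTCC, both on either strand.
Acta1: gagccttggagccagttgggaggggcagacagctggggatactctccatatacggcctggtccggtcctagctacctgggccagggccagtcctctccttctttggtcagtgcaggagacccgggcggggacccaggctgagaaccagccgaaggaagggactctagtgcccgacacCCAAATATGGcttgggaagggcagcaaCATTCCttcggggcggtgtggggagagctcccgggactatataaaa
Acta2: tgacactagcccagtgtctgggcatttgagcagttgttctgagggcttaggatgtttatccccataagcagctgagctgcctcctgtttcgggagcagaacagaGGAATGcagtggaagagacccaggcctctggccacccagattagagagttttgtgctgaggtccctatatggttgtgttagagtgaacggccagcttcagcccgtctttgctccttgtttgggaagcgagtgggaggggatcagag
The Acta1 window held 1 CArG box, which began 73 bases before the start, and 1 MCAT element, which began 46 bases before it. The Acta2 window held no strict CArG box and 1 MCAT element, 146 bases before the start. It does hold ccctatatgg and ccttgtttgg, which each differ from the strict consensus at 1 base. The Acta1 window likewise holds ccatatacgg and ccttctttgg, so such near matches are not particular to Acta2. Near matches were not searched systematically or marked in any window, so the absence of a strict match does not mean that the window lacks CArG-like sequence. Of 32817 promoter windows in the same table, 1.47% held a strict CArG box and 12.6% an MCAT element. The windows of Actn1 and Actn2 held neither. These matches describe letters only, and those of Actg2 and Actb were not analysed here.

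The clearest difference lay in skeletal alpha-actin. Acta1 (ENSMUSG00000031972) had 246 CPM (238 to 254) in the control section and 1512 CPM (1490 to 1533) in the transgenic section, from 3532 and 19580 UMIs. The transgenic level was 6.15-fold that of the control (5.94 to 6.38), a log2 ratio of 2.62. Of the 15236 genes with at least 20 UMIs over both sections, 260 genes (1.71%) had a higher ratio, and the median log2 ratio of them all was 0.20. Every transgenic quadrant, at 1311 to 1798 CPM, was above every control quadrant, at 133 to 324 CPM.

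Non-muscle alpha-actinin was the other abundant gene past 2-fold. Actn1 (ENSMUSG00000015143) had 39.9 CPM (36.7 to 43.3) in the control section against 115 CPM (109 to 121) in the transgenic one, which was 2.87-fold higher (2.61 to 3.17). Its quadrants lay at 35.8 to 43.4 CPM and 82.3 to 140 CPM and did not overlap. The sarcomeric alpha-actinin went the other way. Actn2 (ENSMUSG00000052374) had 1265 CPM (1247 to 1284) in the control section against 947 CPM (930 to 964) in the transgenic one, for a log2 ratio of -0.42 (-0.45 to -0.38). All transgenic quadrants, at 817 to 1071 CPM, were below the control quadrants, at 1221 to 1317 CPM.

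The smooth muscle and cytoplasmic actins differed less, and their quadrants overlapped. Acta2 (ENSMUSG00000035783) had 292 CPM (284 to 301) in the control section against 412 CPM (401 to 424) in the transgenic one, a 1.41-fold difference (1.35 to 1.47). Its quadrants spanned 181 to 416 CPM in the control and 302 to 489 CPM in the transgenic section. Actb (ENSMUSG00000029580) had 848 CPM (833 to 864) and 917 CPM (901 to 934), a log2 ratio of 0.11 (0.08 to 0.15), which turned to -0.04 with TMM factors, with DESeq2 size factors and in the spots richest in cardiomyocyte markers. No direction is therefore given for Actb, whose control quadrants lay within 832 to 858 CPM. Actg2 (ENSMUSG00000059430) was near the limit of the assay, with 17 UMIs in the control and 34 in the transgenic section, or 1.18 CPM (0.69 to 1.89) and 2.62 CPM (1.82 to 3.67). Its 2.22-fold ratio had an interval from 1.21 to 4.24, was under 2-fold with TMM factors (log2 ratio 0.99), and rests on few UMIs.

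**Figure D1:**
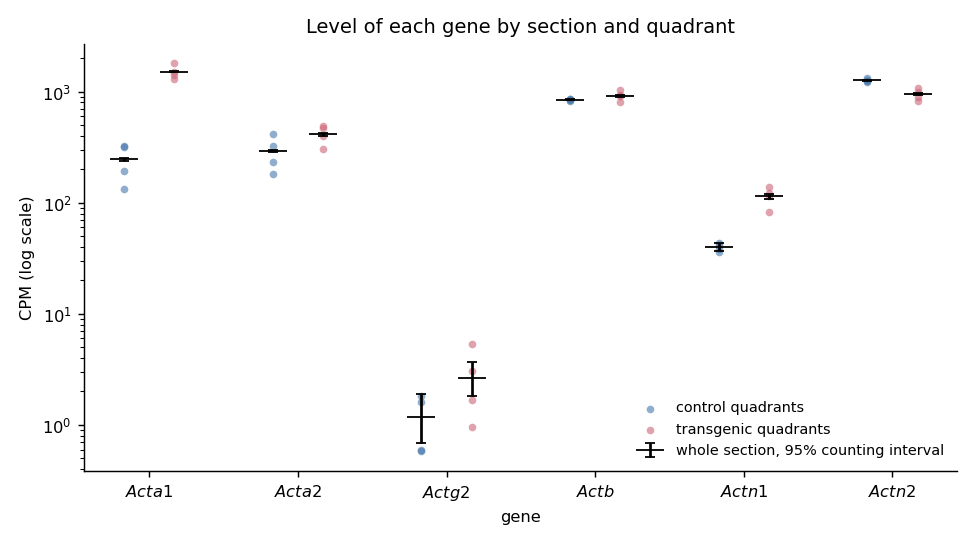
Level of each measured actin and alpha-actinin in CPM on a log axis, with the control and transgenic sections side by side. Black marks show the whole section with its 95% counting interval and dots show the 4 quadrants. The Acta1 and Actn1 dots of the transgenic section sit above all control dots, those of Actn2 sit below them, and the others overlap.

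By counts, 3 of the 6 genes (Acta1, Actg2 and Actn1) reached 2-fold in favour of the transgenic section, as did 13.7% of all genes tested, and 0 of 6 were at least 2-fold lower, as were 5.61% of all genes. All transgenic quadrants were above the control quadrants for 2 of the 6 genes against 30.3% of all genes, and below for 1 of 6 against 13.1%. The shares by quadrants were therefore near those of all genes.

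The summed UMIs of the 4 actins were 1388 CPM in the control section against 2844 CPM in the transgenic one, for a log2 ratio of 1.04 (1.01 to 1.06). Without Acta1 the sums were 1142 and 1332 CPM, a log2 ratio of 0.22 (0.19 to 0.25), close to the median of all genes. The added UMIs of these 4 actins were thus mostly those of Acta1. The sum leaves out Actc1 and Actg1, so it is not the total of actin. The summed alpha-actinins went from 1305 CPM in the control to 1062 CPM, a log2 ratio of -0.30 (-0.33 to -0.27), since Actn2 makes up most of them.

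The composition of the UMIs of the measured actins, which leave out Actc1 and Actg1, turned over between the sections. Shares of actin UMIs are shares of these measured actins throughout. Acta1 gave 17.7% (17.2 to 18.2) of the 19949 actin UMIs of the control and 53.2% (52.6 to 53.7) of the 36839 of the transgenic section. Actb went from 61.1% to 32.3% and Acta2 from 21.1% to 14.5%, although the CPM over section totals of neither was lower in the transgenic section. Actg2 stayed under 0.1% in both, at 0.085% and 0.092%. The number of probes per gene is not given in the sources used here, and probes for near-identical actins may read each other's transcripts, so these shares are compared between sections and not read as amounts of protein or RNA. Quadrant shares of Acta1 ran from 11.1% to 21.1% in the control and from 46.2% to 59.6% in the transgenic section.

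Within the alpha-actinins, Actn1 gave 3.06% (2.82 to 3.32) of 18761 UMIs in the control and 10.8% (10.3 to 11.3) of 13752 in the transgenic section. The quadrants held 2.80% to 3.30% and 7.14% to 14.6%, so the control was the more even of the sections. In the 50% of spots with the highest share of cardiomyocyte marker UMIs, the Acta1 share of actin was 16.4% and 56.5%, and the Actn1 share of alpha-actinin was 2.65% and 7.30%. The difference in actin composition was therefore as large in these spots, and that in the alpha-actinins was smaller. The marker list holds Myl2, Tnnc1 and Myl3, the genes with spot patterns most like that of Actn2 in the transgenic section. The smaller alpha-actinin difference thus depends in part on how the spots were picked. They were picked within each section and are not matched between sections.

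**Figure D2:**
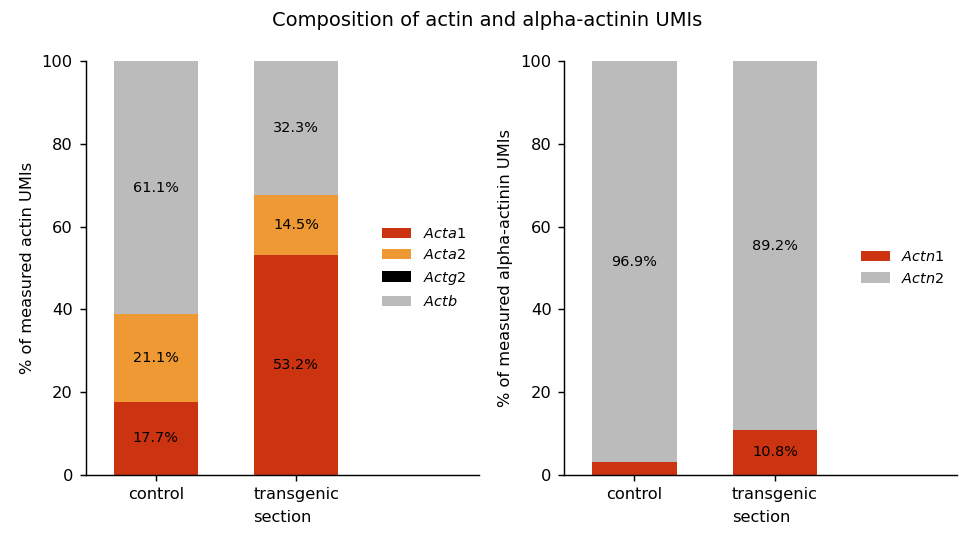
Percent of the summed UMIs of the measured actins (left) and alpha-actinins (right) given by each gene in the control and transgenic sections, as stacked bars from 0 to 100%. Acta1 goes from 17.7% to 53.2% of actin UMIs and Actn1 from 3.06% to 10.8% of alpha-actinin UMIs, while Actg2 is too small to see.

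The spots showed how widely each gene was found. Acta1 had a UMI in 72.1% of control spots and 96.1% of transgenic spots, and in 66.7% and 96.8% when each spot was cut down at random to 8134 UMIs (140 control and 78 transgenic spots were too shallow for this). Its median per 10000 UMIs of a spot was 1.52 in the control and 11.2 in the transgenic section, with a highest spot of 24.0 and 130. Acta1 was thus spread over nearly the whole transgenic section, and 10% of its spots exceeded 29.8 per 10000. Actn1 had a UMI in 34.6% of control and 70.8% of transgenic spots, or 26.8% and 56.1% after thinning. Acta2 was found in 86.1% and 91.1% of spots, with its highest spot in the control, at 56.6 per 10000 against 27.4. Actb was found in 99.4% of spots in both sections and Actn2 in 99.4% and 96.6%. Actg2 was seen in 1.35% and 3.03% of spots.

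When pooled, the spots without Actn2 were rich in erythroid markers. There were 8 control and 31 transgenic such spots. In their pooled UMIs these markers (haemoglobins and related genes) made up 52.9% and 78.5% and cardiomyocyte markers 4.22% and 0.677%. Many of these spots were shallow, with a median of 797 and 3310 UMIs against 11336 and 14531 in the whole sections. Some of the control ones stood apart from the rest of that section, in which 4 spots had no neighbouring spot. The pooled shares therefore do not show that each of these spots was rich in erythroid markers. On the transgenic map the spots without Actn2 include a cluster that by eye lies inside the outline of the section. Whether this place is a cavity was not checked, since the images were not used. They held 0.0388% of the control and 0.863% of the transgenic UMIs.

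**Figure D3:**
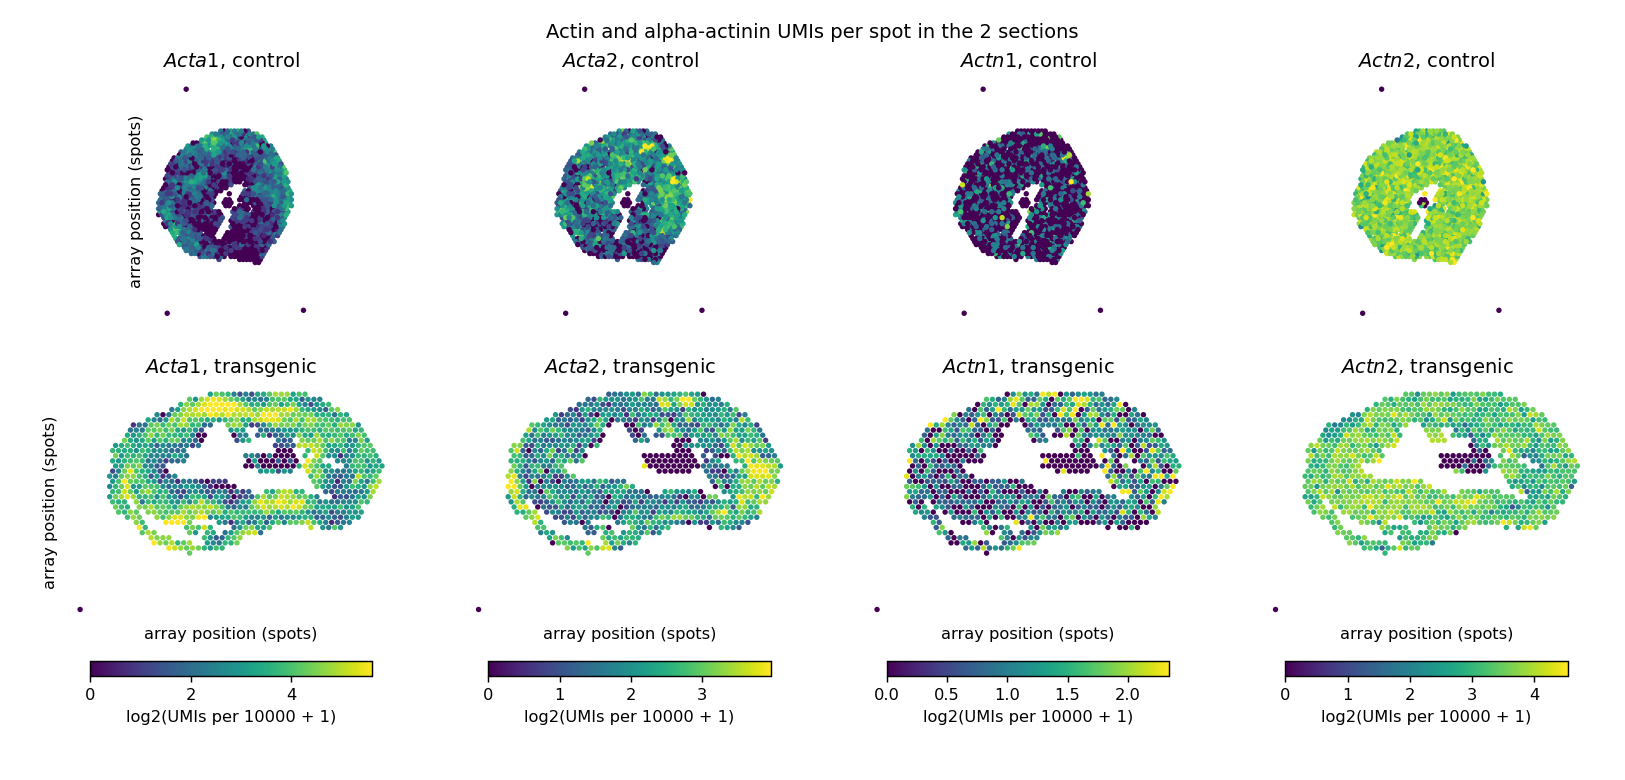
Maps of Acta1, Acta2, Actn1 and Actn2 over the spots of the control (upper row) and transgenic (lower row) sections, coloured by log2(UMIs per 10000 of the spot + 1) on a scale shared by both sections of a gene. Axes are array positions in spots. Acta1 forms broad patches in both sections and Acta2 small bright groups in the control, while Actn2 differs little between control quadrants. The transgenic spots without Actn2, some of them in a cluster inside the outline, were rich in erythroid markers when pooled.

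Both muscle actins were already patterned in the control heart. Moran's I, a score of how alike neighbouring spots are that the authors deposited for each gene, was 0.52 for Acta1 in the control section, rank 2 of 19219 genes, and 0.36 for Acta2, rank 7. By contrast Actn2, Actb and Actn1 had 0.06, 0.04 and 0.01, at ranks 244, 383 and 4077. In the transgenic section Moran's I was 0.54 for Acta1 (rank 107 of 19227), 0.51 for Actn2 (rank 134), 0.41 for Acta2 (rank 235) and 0.15 for both Actb and Actn1. The score of Acta1 was therefore similar in the sections while its rank was not. Actn2 had a much higher score in the transgenic section, and its rank went from 244 to 134.

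In the control section, Acta1 was higher in the upper quadrants, at 316 CPM on the left and 324 CPM on the right, than in the lower ones, at 195 and 133 CPM. Acta2 was likewise higher in the upper quadrants, with 322 and 416 CPM above and 181 and 235 CPM below. Their paths from the tissue edge inward, counted in rings of spots from any border including that of gaps within the section, went opposite ways. Acta1 had 284 CPM in the outermost ring, 283, 234 and 211 CPM in the next rings and 232 CPM in the fifth ring and deeper. Acta2 had 216, 230, 242, 327 and 363 CPM over the same rings. In the transgenic section Acta1 was highest in the third ring, at 1807 CPM against 1384 CPM at the edge, and Acta2 stayed between 339 and 435 CPM.

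The genes whose spot pattern was most like that of Acta1 were others in the transgenic section than in the control. Likeness was the Spearman correlation of UMIs per 10000 across the 1256 control or 923 transgenic spots with UMIs, given as a description, since the spots share a library and differ in depth and cell makeup. In the control, Acta1 was most like Ptgds (rho 0.50), a prostaglandin D2 synthase, Ankrd1 (0.47), a stretch-responsive sarcomere protein, and Lrtm1 (0.40). In the transgenic section those were at 0.03, 0.17 and 0.13. Lrtm1 had 3625 UMIs in the control but 256 in the transgenic section, and so few UMIs limit a rho over spots. The leading genes there were Des (0.59), the muscle intermediate filament desmin, Tgm2 (0.52), a transglutaminase, and Hspb1 (0.50), a small heat shock protein. Des itself had 3017 CPM in the control section against 8661 CPM in the transgenic one.

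For Acta2, other genes ranked above contractile genes of vessel walls in the transgenic section. Its leading genes in the control were Acta1 (0.28), Tagln (0.27) and Myh11 (0.26), the last 2 encoding smooth muscle transgelin and myosin. In the transgenic section they included Igfbp7 (0.47), a secreted binding protein of growth factors, and Apoe (0.46), a lipid carrier, while Tagln was at 0.28 and Myh11 at 0.18. Tagln was thus about as like Acta2 as in the control, and Myh11 had 287 UMIs in the transgenic section against 486 in the control. Acta1 and Acta2, alike at 0.28 in the control, were at -0.04 in the transgenic section.

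The alpha-actinins had different leading genes in the transgenic section. Their rho with each other was 0.06 in the control and -0.06 in the transgenic section. In the transgenic section Actn1 had a rho of 0.21 with Acta1 and 0.18 with Acta2, and Actn2 had 0.19 and -0.05. Actn1 was most like Col3a1 (0.36), Igfbp7 (0.35) and Col1a1 (0.34), the first and last encoding fibrillar collagens, and Actn2 was most like Myl2 (0.55), Tnnc1 (0.54) and Myl3 (0.53), ventricular myosin light chains and cardiac troponin C. Actb was most like Tmsb4x (0.41), the actin monomer-binding thymosin beta-4, followed by the collagen gene Col1a2 (0.33) and Igfbp7 (0.33). In the control the best likeness of Actb (to Igfbp7), Actn1 and Actn2 was 0.18, 0.12 and 0.14, too weak to name a pattern.

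Spots were then ranked on other genes and summed in 4 classes of equal size, from the lowest to the highest rank. The fibroblast list holds Col1a1 and Col1a2, and the cardiomyocyte list holds Myl2, Tnnc1 and Myl3. These were named above as leading genes of Actn1, Actb or Actn2. The orders of these 3 over the classes thus restate that likeness in part and are not a separate result. Ranked on 8 fibroblast markers, the transgenic section had 65.3 CPM of Actn1 in the lowest class and 161 CPM in the highest, with the others in between in order. Acta2 went from 248 CPM through 334 and 446 to 597 CPM, and Actb from 729 to 1094 CPM. Actn2 took the reverse order, from 1107 to 773 CPM. Acta1 followed neither, with 1134, 1553, 1747 and 1558 CPM.

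In the control section the same ranking gave 35.7 to 48.0 CPM for Actn1 and 246 to 370 CPM for Acta2, both from the lowest class to the highest. Over the classes in the same order, Acta1 had 242, 241, 245 and 256 CPM and Actn2 had 1272, 1276, 1311 and 1195 CPM. The classes were ranked within each section, so a class of one section is not matched to that of the other. The 8 fibroblast markers summed to 1629 CPM in the control section against 4524 CPM in the transgenic one. Their log2 ratios were all above 0 but ran from 0.0009 for Gsn and 0.06 for Dpt, which were near level, to 2.66 for Col1a2 and 2.68 for Col1a1. The 6 markers of activated fibroblasts summed to 74.1 and 1164 CPM. The part of both lists in the Actn1 and Acta2 differences was not tested.

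Ranked on the share of cardiomyocyte marker UMIs, Actn1 in the transgenic section was 152 CPM in the lowest class and 62.4 CPM in the highest, and its share of alpha-actinin UMIs went from 18.6% to 4.92%. Actn2 went from 665 to 1206 CPM. Actn2 and Actn1 thus ran in opposite orders. In the control all classes of Actn2 lay between 1244 and 1296 CPM. Control Actn1 was also lower in the highest class, with 55.3, 36.3, 38.4 and 31.2 CPM over the classes. Its share there went from 4.26% to 2.41%. The 14 cardiomyocyte markers summed to 129232 CPM in the control section against 64479 CPM in the transgenic one, with none at 0, and their part in the lower Actn2 level of the whole section was not tested.

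**Figure D4:**
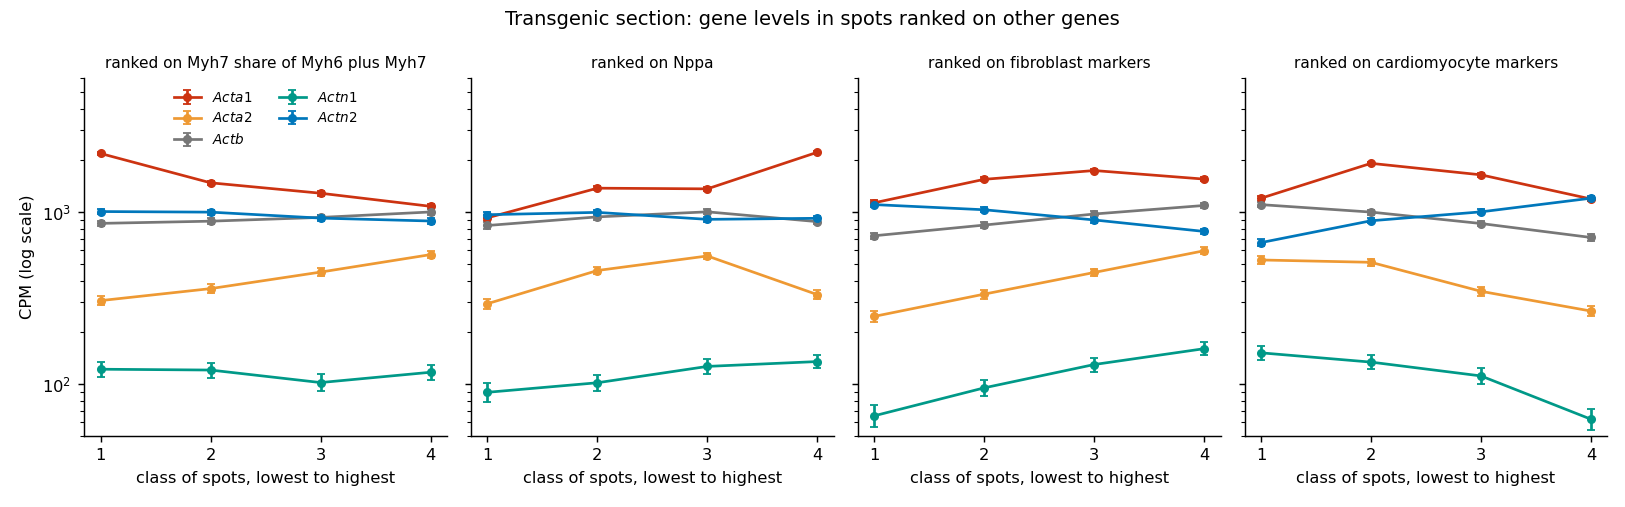
CPM on a log axis of Acta1, Acta2, Actb, Actn1 and Actn2 in the transgenic section, in 4 classes of spots ranked from lowest to highest on the Myh7 share of Myh6 plus Myh7 UMIs, on Nppa, on fibroblast markers and on cardiomyocyte markers. Bars are 95% counting intervals. Acta1 goes down with the Myh7 share and is highest in the top Nppa class, and Actn1 and Actn2 run in opposite orders over the fibroblast and cardiomyocyte rankings.

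Within the transgenic section Acta1 was lower where the share of the beta-myosin gene Myh7 was higher. Myh7, like Acta1, belongs to the fetal program. Both were higher in the transgenic section as a whole, Myh7 at 33.6 CPM in the control section against 7847 CPM in the transgenic one. Over the classes of transgenic spots ranked on the Myh7 share of Myh6 plus Myh7 UMIs, however, Acta1 went from 2195 CPM through 1482 and 1289 to 1082 CPM, and its share of actin UMIs from 65.3% to 40.7%. The class with the lowest Myh7 share was thus the richest in Acta1. The class with the highest share still had more Acta1 than any control quadrant, the highest of which had 324 CPM. Acta2 ran the other way, from 306 through 359 and 448 to 566 CPM, while Actn1 stayed between 102 and 122 CPM. Across spots the correlation of Acta1 with Myh7 was -0.19 in the transgenic and -0.02 in the control section.

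With Nppa, which encodes atrial natriuretic peptide and marks both atrial tissue and the stressed ventricle, Acta1 went along in part. The 4 classes ranked on Nppa had 927, 1379, 1367 and 2231 CPM of Acta1, and the correlation was 0.32 in the transgenic and 0.09 in the control section. Acta2 was highest in the third class, at 556 CPM, and had 331 CPM in the highest. Nppa itself had 274 CPM in the control section against 20250 CPM in the transgenic one. The 6 atrial markers, of which Nppa gave nearly all UMIs, summed to 296 and 20309 CPM, and the part of atrial tissue in these values was not tested.

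Acta2 was set beside 4 contractile genes of smooth muscle, Myh11, Tagln, Cnn1 and Lmod1, chosen after their values were seen. In control spots with 0, with 1 or 2 and with 3 or more UMIs of these genes (833, 303 and 120 spots), Acta2 was 231, 277 and 690 CPM. In the transgenic section the same classes (357, 394 and 172 spots) had 316, 415 and 559 CPM. In both sections Acta2 was higher where these genes had more UMIs. So was Acta1, at 205, 278 and 412 CPM in the control classes and 1252, 1546 and 1851 CPM in the transgenic ones. Actb was also highest in the third class, at 1026 and 1092 CPM. Actn2 was 1255, 1292 and 1264 CPM in the control classes and 998, 958 and 842 CPM in the transgenic ones. The rise was thus not particular to Acta2. The classes are not matched between sections, since transgenic spots were deeper (median 14531 against 11336 UMIs) and Cnn1 was higher there. Actn1 was 34.9, 38.6 and 72.7 CPM in the control classes and 92.9, 107 and 166 CPM in the transgenic ones.

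The smooth muscle genes themselves did not move as 1 group. Myh11 had 33.8 CPM in the control section against 22.2 CPM in the transgenic one, Tagln had 42.2 and 65.2 CPM, and Cnn1, encoding calponin, had 3.13 and 20.9 CPM. The Cnn1 log2 ratio of 2.74 (2.28 to 3.23) was as large as that of Acta1. The 8 smooth muscle markers summed to 3552 and 9053 CPM, with 5 of 8 higher in the transgenic section, among them Lmod1 by a log2 ratio of only 0.06. Most of the sum was Des (3017 and 8661 CPM), which cardiomyocytes make too. Smtn, the next by UMIs, went the other way, with 5143 control and 2402 transgenic UMIs (log2 ratio -0.95). The sum is therefore not read as a rise of smooth muscle genes in general. Pericyte markers summed to 903 and 765 CPM (3 of 6 higher in the transgenic section) and endothelial markers to 1488 and 1434 CPM (4 of 6 higher). Of those endothelial markers, Cdh5 and Fabp4 were near level, with log2 ratios of 0.05 and 0.02. Macrophage markers summed to 223 and 440 CPM (6 of 7 higher) and mesothelial markers to 15.4 and 33.4 CPM (5 of 6 higher). No marker of these lists was at 0 in either section, and their part in the actin levels was not tested.

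Skeletal muscle was checked because Acta1 is its main actin. Its 9 markers with counts summed to 12.0 CPM in the control section against 47.6 CPM in the transgenic one. By CPM 5 of them were higher in the latter, among them Myh1, whose UMIs were equal. The fast myosins were close to absent, with 6 UMIs in each section for Myh1, 4 and 2 for Myh2, and 3 and 2 for Myh4. Tnni2 had 41 and 75 UMIs and Mylpf 36 and 63, whereas Tnnc2 had 25 and 17 and Myog 24 and 12. Most of the difference was Tnnt3, a fast troponin T, at 18 and 384 UMIs. Actn3, the alpha-actinin of fast skeletal fibres, had 16 and 56 UMIs, for a log2 ratio of 1.96 (1.14 to 2.86). The part of skeletal muscle in the Acta1 level was not tested.

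Other genes of actin biology were read from 6 lists, beside the 13.7% of all genes tested that were at least 2-fold higher and the 5.61% that were at least 2-fold lower. Of 15 genes of actin assembly and turnover, 3 were 2-fold higher or more in the transgenic section and 0 lower, with a median log2 ratio of 0.67 beside 0.20 for all genes. Dstn, the depolymerising factor destrin, had 1.75, and the Arp2/3 subunits Arpc3 and Actr3 had 1.47 each, while Cap2, a cyclase-associated protein of muscle, was lowest at -0.70. Among 10 crosslinkers and focal adhesion genes the median was 0.86, with 3 at least 2-fold higher, Zyx (zyxin, 1.59), Tln1 (talin 1, 1.23) and Flnc (the muscle filamin, 1.20), and 0 lower. Vcl, encoding vinculin, had 0.87, and the talin of striated muscle, Tln2, had -0.81.

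The partners of sarcomeric alpha-actinin at the Z-disc went both ways. Of 11 tested, 4 were at least 2-fold higher and 4 at least 2-fold lower, with a median of 0.27, where 13.7% and 5.61% of all genes were called. Higher were Pdlim3 (3.72) and Pdlim7 (1.34), LIM proteins that bind alpha-actinin, the actin-associated Synpo2l (2.79) and Myot (2.27), encoding myotilin. Lower were Tcap (-2.62), the titin cap telethonin, Fhod3 (-1.64), a sarcomeric formin, Myoz2 (-1.38), a calsarcin, and Ldb3 (-1.01), encoding ZASP. Pdlim3 had 25.9 CPM in the control section against 341 CPM in the transgenic one, and Tcap had 5902 and 960 CPM.

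Of 11 thin filament partners, 2 were at least 2-fold higher and 2 lower, with a median of -0.12, again beside 13.7% and 5.61% of all genes. Tpm2, a tropomyosin, had a log2 ratio of 1.18 and Xirp1, an actin-binding repeat protein, 1.21, whereas the cardiac troponin I gene Tnni3 had -1.92 and Lmod3, a leiomodin that nucleates actin, -2.72. The main tropomyosin Tpm1, at 14767 and 14743 CPM, and Tnnt2, at 13091 and 14721 CPM, were nearly level. Of 6 genes of the serum response factor and myocardin pathway, none was 2-fold higher and only Fhl2, a cofactor, was 2-fold lower (-2.44). Srf had 0.39, Myocd -0.51 and Tead1 0.69. Of 4 other actin-related genes tested, only Actn3 passed 2-fold, and Actl6a, an actin-like protein of chromatin remodelling complexes, was lowest at 0.22.

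**Figure D5:**
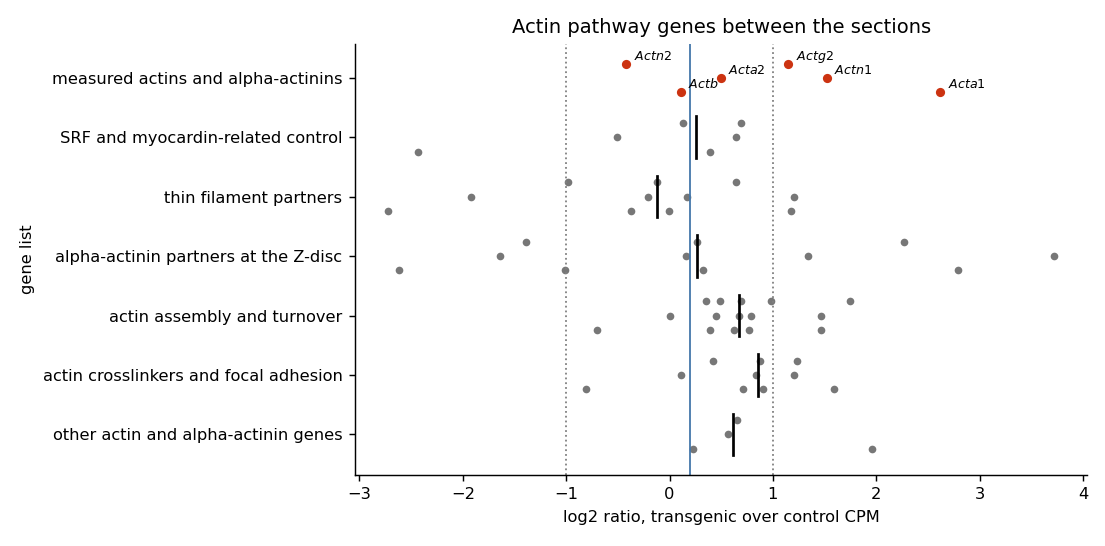
Log2 ratio of transgenic over control CPM for the 6 measured actins and alpha-actinins (top, named) and for the genes of 6 lists of actin biology, 1 dot per gene. Black bars are list medians, the blue line is the median of all genes tested (0.20) and dotted lines mark 2-fold. Z-disc partners spread from -2.62 to 3.72, and most assembly and crosslinker genes lie to the right of the blue line.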

How the data were processed

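Formalin-fixed heart sections of 2 mice were measured with the Visium CytAssist probe assay. The authors deposited UMI counts, neither normalized nor pooled, that Space Ranger 2.0.0 had made per gene and spot (file header), and the submitters' processing notes also name bcl2fastq and GRCm39 (mm39). The probe set is not given in the sources used here. Moran's I is a score deposited by the authors and was used as given.

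UMIs were summed per section, because spots are not replicates, and divided by the section's total. Intervals were exact at 95% (Poisson for CPM, conditional binomial for ratios, Clopper-Pearson for shares). Those for ratios were also run on counts simulated with Poisson error alone, which tests neither the other intervals nor the spread between animals. A count of 0 would allow up to 3 counts, or 0.209 (control) and 0.232 (transgenic) CPM. Median depth was 11336 and 14531 UMIs per spot, and 725 barcodes stood in both sections, since they are array positions and not cells. Genes were called by size, at least 2-fold, among those with at least 20 UMIs over both sections, and no p value was computed. Likeness was ranked over genes with at least 200 UMIs in the section, and the 3 leading genes are named, apart from 1 that is not reported here and from most control genes of Actb, Actn1 and Actn2, whose likeness was weak. In the lists, all genes past 2-fold and the highest and lowest are named, with others for their known role. The Myh7 ranking used spots with at least 20 Myh6 plus Myh7 UMIs. The promoter start that RefSeq's table uses for Acta2 and Actn1 lies inside the annotated span of these genes.

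The members, gene lists and alternatives were chosen with earlier results of these data known. The 4 smooth muscle genes, the rankings on Nppa, fibroblast and cardiomyocyte markers, the motifs and the composition over 4 actins were chosen after values were seen. Alternatives used TMM factors (edgeR 4.0.16) and size factors (DESeq2 1.42.0) in R 4.3.3, totals leaving out the 50 most abundant genes, means over spots, subsets of spots, spots thinned to equal UMIs, other minimum counts and 1 CPM added. Other steps ran in Python 3.11.15 with scipy 1.17.1, numpy 2.4.6 and pandas 2.3.3. Neither the images nor the p values given with Moran's I were used.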

Additional observations from a re-analysis of the deposited data

How the results depend on the processing

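The log2 ratio of Acta1 stayed within 2.46 to 2.77, that of Acta2 within 0.28 to 0.50, that of Actn1 within 1.32 to 1.52 and that of Actn2 within -0.57 to -0.21 over the 8 alternatives. The Actb ratio changed sign to -0.044 with TMM factors, -0.037 with DESeq2 size factors and -0.042 in the spots richest in cardiomyocyte markers. The Actg2 ratio was 0.73 with 1 CPM added and 0.99 away from the tissue edge, and in the spots richest in cardiomyocyte markers it had 0 control and 9 transgenic UMIs, so no ratio is given there. The count of genes at least 2-fold higher was then 2 in place of 3, Acta1 and Actn1, as it was with TMM factors. The log2 ratio of the summed actins was 0.88 with TMM factors, 0.88 with DESeq2 size factors, 0.95 without the 50 most abundant genes, 0.98 as a mean over spots and 0.99 in the spots richest in cardiomyocyte markers. That of the summed alpha-actinins was -0.45, -0.45 and -0.38 with the first 3 of these and -0.14 in the cardiomyocyte-rich spots. The Acta1 share of transgenic actin UMIs was 51.8% as a mean over spots, 53.9% away from the edge and 56.5% in the cardiomyocyte-rich spots, and the control share was 17.1% away from the edge and 16.4% in the cardiomyocyte-rich spots. The Actn1 share of alpha-actinin UMIs was 2.65% and 7.30% in the cardiomyocyte-rich spots. The causes of these shifts were not tested. The Acta1 share of Acta1 plus Actc1 was not run, since Actc1 was not analysed here, and was replaced by the share of 4 actins. No paired analysis was possible because each genotype had 1 section. Depth limits Actg2 most, and no setting adds the missing spread between animals.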

Other observations

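In the control section the genes most like Acta1 across spots fared differently between the sections. Ankrd1, which encodes a stretch-responsive sarcomere protein, had 859 CPM in the control section against 11022 CPM in the transgenic one, for a log2 ratio of 3.68 (3.65 to 3.71). Lrtm1 had 252 and 19.8 CPM, a log2 ratio of -3.67 (-3.86 to -3.49), and Ptgds had 340 and 319 CPM, a log2 ratio of -0.09 (-0.15 to -0.03). Genes that shared a pattern with Acta1 in the control were thus far higher, far lower and near level in the transgenic section.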
